A study of Mus musculus with 12 samples.

Results

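The genes described here are the MHC class II genes Cd74, H2-Aa, H2-Ab1 and H2-Eb1 and their regulator Ciita, read in sorted stromal cells of the mouse gut. They were taken from a fixed list by symbol, and all 5 were found among the 32052 genes of the count table. RNA was sequenced from 12 libraries of C57Bl6 background mice aged 8 to 12 weeks. All cells were stroma sorted as EPCAM negative and CD45 negative, that is, without the surface markers of epithelium and of leukocytes. They were then split by a GFP transgene that reports Rspo3, the gene of the Wnt amplifier R-spondin 3. Both sorts were read from small intestine and from colon, which makes 4 groups of 3 libraries each. No treatment or further allele is named for any group. The series also names a sort on CD31, which is not analysed here. Separate mice for the replicates, or pools of mice, are not mentioned in the labels, so p-values measure the spread between these libraries, which may be technical.

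Class II molecules present peptides from engulfed or endosomal protein to CD4 T cells. Each is a pair of an alpha and a beta chain, held by the invariant chain Cd74 until the exchange factor H2-DM loads a peptide in the endosome. Dendritic cells, macrophages and B cells make class II constantly, whereas stromal, endothelial and epithelial cells can make it when interferon gamma, through its receptor, induces the coactivator Ciita. Ciita binds no DNA itself and works through RFX, CREB and NF-Y proteins bound to the X and Y boxes of class II promoters.

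H2-Aa (the I-A alpha chain, ENSMUSG00000036594, chromosome 17, 34282744 to 34287823, minus strand of GRCm38), H2-Ab1 (the I-A beta chain, ENSMUSG00000073421, 34257689 to 34269419, plus strand) and H2-Eb1 (the I-E beta chain, ENSMUSG00000060586, 34305867 to 34316674, plus strand) lie in one stretch of that chromosome. Ciita (ENSMUSG00000022504) spans 10480059 to 10528418 on the plus strand of chromosome 16. Positions are those of GENCODE M21. The RefSeq promoter table (GRCm38.p6) matched 8 of 11 class II genes and 2 of the 5 described here, H2-Aa and H2-Eb1. Bases 100 to 31 before the start of these 2 genes, and of 2 class II neighbours, H2-DMb1 and H2-Ob, are shown because they hold the X and Y box region through which Ciita acts. Capitals mark letters found by search on both strands. They are CTNGCAAC (part of an X box), CTGATTGG (a Y box) and ATTGG (the Y box core). ATTGG is contained in CTGATTGG and is written CCAAT where it is on the other strand.
H2-Aa, chr17:34287854-34287923, minus strand: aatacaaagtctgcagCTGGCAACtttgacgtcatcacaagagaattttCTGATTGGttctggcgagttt
H2-Eb1, chr17:34305767-34305836, plus strand: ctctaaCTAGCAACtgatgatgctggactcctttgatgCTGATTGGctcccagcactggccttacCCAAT
H2-DMb1, chr17:34153091-34153160, plus strand: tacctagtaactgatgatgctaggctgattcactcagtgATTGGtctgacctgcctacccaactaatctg
H2-Ob, chr17:34238805-34238874, plus strand: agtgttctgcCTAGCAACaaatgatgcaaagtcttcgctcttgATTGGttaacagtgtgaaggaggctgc

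H2-Aa and H2-Eb1 both carried the X-type letters and the full Y box in the same order. H2-Ob carried the X-type letters with the Y core, and H2-DMb1 the Y core without the X-type letters in this window. The motifs were chosen after these windows had been read. Of 32851 promoters in the table, each from 250 bases before to 50 after the start, 3.42% held CTNGCAAC, 4.1% held CTGATTGG, 37.4% held ATTGG and 0.18% held both of the longer motifs. Over that longer stretch H2-Eb2 held both in the reverse order, the Y box at -103 to -96 and the X-type letters at -12 to -5. H2-Oa held the Y box without the X-type letters, and H2-DMb2 and H2-DMa held the Y core alone. A match describes letters, not a bound site.

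The libraries held 6489835 to 12286054 counts and 18933 to 23338 genes with a count. Values are given as CPM, counts scaled to one common library size after correction for composition. A library with no count for a gene allows a level of up to 3 counts, which is 0.25 to 0.482 CPM here and covers counting error only. All 10 fibroblast genes of a marker list had counts in every library, and the summed level of 7 lymphatic endothelial genes was 3730 to 14200 CPM in GFP-positive and 193 to 554 CPM in GFP-negative libraries. Small intestinal GFP-negative replicate 3 stood apart from the rest, since 48 of 50 genes on 5 leukocyte lists (pan-leukocyte, B and plasma cell, T and innate lymphoid cell, macrophage and monocyte, dendritic cell) were at their highest of the 12 libraries there, against 15% of all genes. For the 5 class II genes, the calls in each comparison are given with and without that library. Tests of other genes include it unless stated otherwise. In bulk RNA, fewer cells of a type and less RNA per cell cannot be told apart.

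In CPM, all 5 genes were also at their highest in small intestinal GFP-negative replicate 3. In the other 11 libraries they were low in the small intestine and higher in the colon. Cd74, the invariant chain (ENSMUSG00000024610, chromosome 18), measured 69.7, 42.5 and 1950 CPM in small intestinal GFP-negative libraries 1 to 3 and 23.5, 50.9 and 59.4 CPM in small intestinal GFP-positive libraries. In colonic cells it measured 289, 131 and 207 CPM without GFP and 386, 338 and 376 CPM with GFP. The one small intestinal library therefore stood above all others, the other 5 small intestinal libraries stood below all 6 of the colon, and within the colon the 2 sorts did not overlap.

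H2-Ab1 followed the same order, with 30.5, 11.3 and 740 CPM in small intestinal GFP-negative and 9.15, 30.3 and 21.1 CPM in small intestinal GFP-positive replicates. Its colon values were 80.8, 35.1 and 58.8 CPM without GFP and 140, 120 and 127 CPM with GFP. The lowest colon library was close to the highest of the 5 low small intestinal ones, and the colon sorts again did not overlap.

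H2-Aa, the alpha chain that pairs with H2-Ab1, measured 15, 1.98 and 477 CPM in small intestinal GFP-negative and 3.33, 11.1 and 14.2 CPM in small intestinal GFP-positive replicates. In the colon it measured 60.4, 26.2 and 43.4 CPM without GFP and 71.4, 71.6 and 69.6 CPM with GFP. The 3 colonic GFP-positive libraries were nearly level with each other, while the GFP-negative ones were more spread and all lower.

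H2-Eb1, the beta chain of I-E, measured 13.2, 4.7 and 458 CPM in small intestinal GFP-negative and 3.49, 12.2 and 10.6 CPM in small intestinal GFP-positive replicates. Colonic values were 34.5, 17.6 and 26.5 CPM without GFP and 77.2, 53.6 and 71 CPM with GFP. As with the I-A chains, groups overlapped in the small intestine and not in the colon.

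Ciita, the coactivator, measured 6.85, 1.57 and 33.1 CPM in small intestinal GFP-negative and 2.16, 6.8 and 0.354 CPM in small intestinal GFP-positive replicates. In the colon it measured 15.3, 6.85 and 5.7 CPM without GFP, and with GFP 21.5 CPM in replicate 1, 17.7 CPM in replicate 2 and a value between these in replicate 3. Unlike the 4 structural genes, its colonic GFP-negative values overlapped those of the small intestine, and the lowest small intestinal value rested on 3 counts. In TPM (length-scaled abundance) Ciita was not highest in small intestinal GFP-negative replicate 3. It stood at 1.12 TPM there and at 1.05, 1.2 and 1.15 TPM in colonic GFP-positive replicates. Small intestinal GFP-positive replicates 1 and 2 stood at 0.435 and 0.0862 TPM, so their order also depended on the scale.

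**Figure D1:**
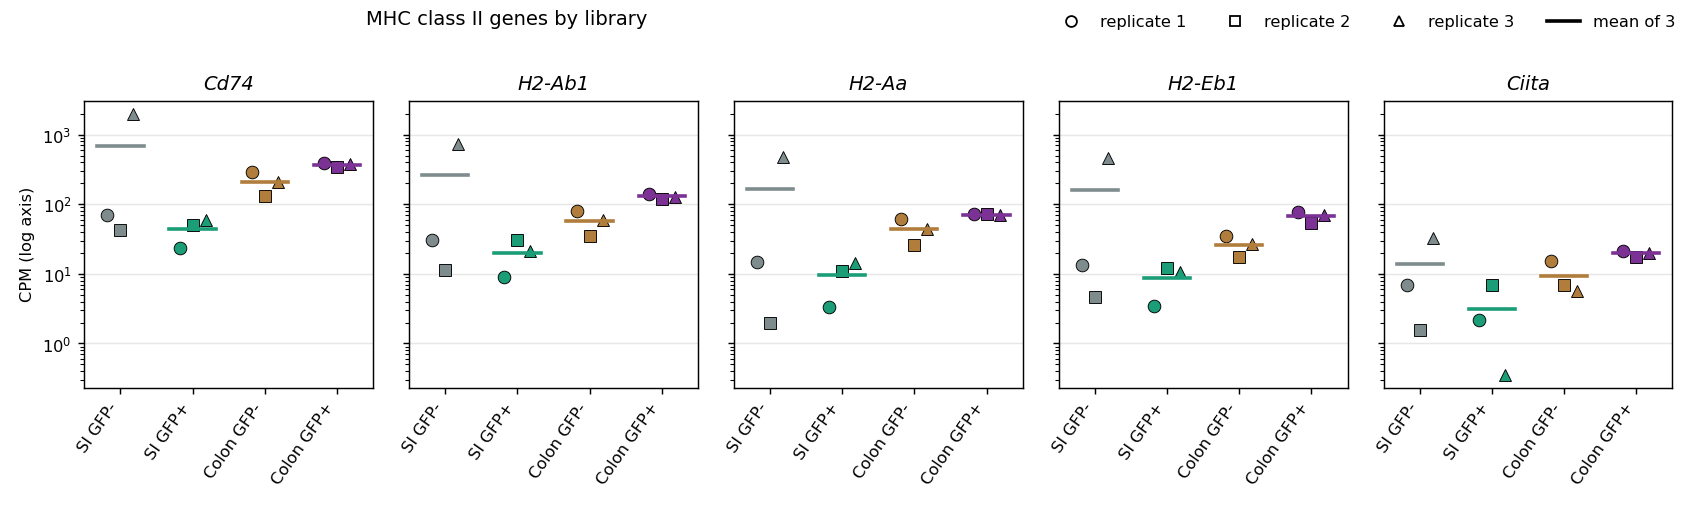
Level of each of the 5 class II genes in the 12 libraries, in CPM on a log axis, by tissue (SI, small intestine) and GFP sort; symbols mark the replicate and bars the mean of 3. Small intestinal GFP-negative replicate 3 is the highest point in each panel, and the 3 colonic GFP-positive points lie above the 3 colonic GFP-negative ones in all 5.

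Set against the mean of small intestinal GFP-negative replicates 1 and 2, replicate 3 held 34.7 times as much Cd74, 35.4 times H2-Ab1, 56.1 times H2-Aa, 51.1 times H2-Eb1 and 7.87 times Ciita. Set against the highest of the other 11 libraries the ratios were 5.04, 5.28, 6.66 and 5.93 for the 4 structural genes and 1.54 for Ciita. In CPM the regulator thus exceeded the other libraries by less than the genes it regulates did, and in TPM it did not exceed them all. With 1 library, these ratios have no replicate check.

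Without that library, all 6 colon libraries lay above all 5 small intestinal ones for Cd74, H2-Aa, H2-Ab1 and H2-Eb1 but not for Ciita, that is, for 4 of 5 genes, and the same held for 2.01% of the 16757 genes tested. The ratio of the colonic to the small intestinal median was 6.16 for Cd74, 5.84 for H2-Aa, 4.75 for H2-Ab1, 4.14 for H2-Eb1 and 7.62 for Ciita.

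Leukocyte genes were high where class II was highest, but not where it was next highest, in the colon. The summed level of 10 pan-leukocyte genes was 997 CPM in small intestinal GFP-negative replicate 3 and 6.8 to 34.6 CPM in the other 11 libraries. Ptprc, which encodes the CD45 that the sort excluded, measured 304 CPM there and 0 to 10.2 CPM elsewhere. The plasma cell gene Jchain measured 8670 CPM there and 29.1 to 312 CPM elsewhere, the macrophage lysozyme Lyz2 250 CPM against 0.361 to 13.3 CPM, and Itgax, a dendritic cell integrin, 57.7 CPM against 0 to 2.36 CPM. All 10 genes of each of the pan-leukocyte, B and plasma cell, T and innate lymphoid cell and macrophage lists, and 8 of 10 of the dendritic cell list, were at their highest in this library. The exceptions were Irf8 and Zbtb46, which were present at 45.1 to 135 and 7.48 to 38.7 CPM across the libraries. None of the 50 leukocyte genes was at 0 in this library, whereas 4 to 26 of the 50 were at 0 in each of the others.

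Summed over Cd74, H2-Aa, H2-Ab1 and H2-Eb1, class II amounted to 3.63 times the pan-leukocyte sum in small intestinal GFP-negative replicate 3. The other small intestinal libraries gave 5.84 and 3.2 for GFP-negative replicates 1 and 2 and 3.83, 15.4 and 3.04 for GFP-positive replicates 1 to 3. By this ratio in CPM the library lay within the range of its tissue, its leukocyte genes being high along with its class II genes. Colonic GFP-positive libraries gave 77.7, 53.2 and 32.9, above every small intestinal library, and colonic GFP-negative libraries gave 44, 10 and 9.86.

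On the TPM scale (length-scaled transcript abundance, from the deposited log2 values), the ratio was 3.97 in small intestinal GFP-negative replicate 3, 5.04 to 20.3 in the other small intestinal libraries, 37.2 to 70 in colonic GFP-positive and 4.33 to 50.3 in colonic GFP-negative libraries. Small intestinal GFP-negative replicate 3 was thus below the rest of its tissue in TPM, and within its range in CPM. Colonic GFP-positive libraries stood above the small intestine on both scales, and colonic GFP-negative ones overlapped it on both. The TPM ratio of 4.33, in colonic GFP-negative replicate 3, rested mostly on Rac2 and Ikzf1. They stood at 6.85 and 2.19 TPM there, from 18 and 21 counts, and the rest of the pan-leukocyte list at 0.475 TPM or less. Against all 50 leukocyte genes, class II amounted to 0.177 to 0.362 of their sum in the small intestine, replicate 3 at 0.312 included, 0.591 to 1.79 in colonic GFP-negative and 2.58 to 5.39 in colonic GFP-positive libraries, with no overlap between these ranges. Much of the sum of the 50 genes came from single genes, so this ratio does not weigh them evenly. Jchain made 8670 of 11600 CPM in small intestinal GFP-negative replicate 3. In colonic GFP-positive replicate 1, Irf8, Zbtb46 and Jchain gave 45.1, 30.1 and 29.1 of 125 CPM. Whether leukocytes carried over in the sort supplied the class II RNA was not tested.

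**Figure D2:**
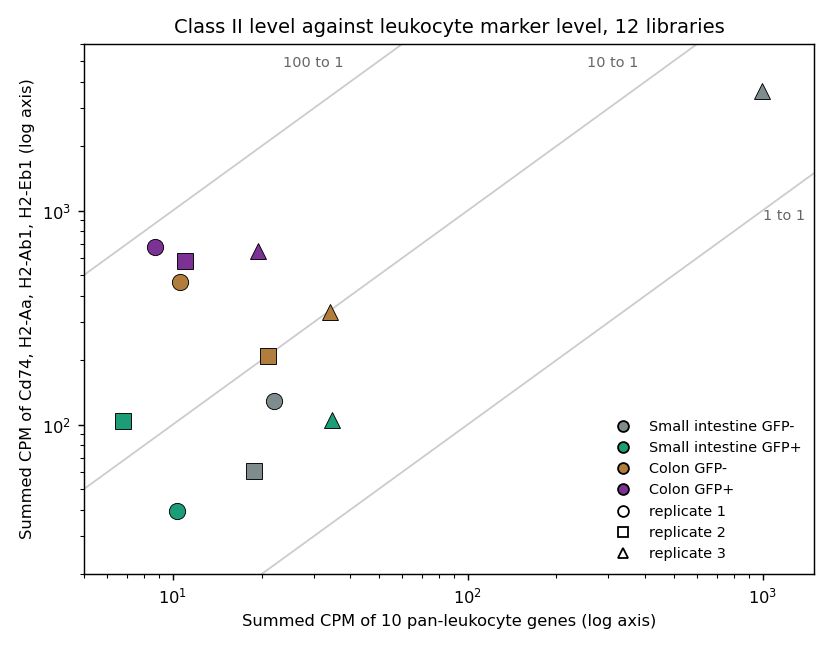
Summed CPM of Cd74, H2-Aa, H2-Ab1 and H2-Eb1 against summed CPM of 10 pan-leukocyte genes, both on log axes, 1 point per library, with grey lines at ratios of 1, 10 and 100. Small intestinal GFP-negative replicate 3 lies at 997 and 3620 CPM and at a ratio of 3.63, near 4 of the other 5 small intestinal libraries in ratio, while colonic GFP-positive libraries lie at 32.9 to 77.7.

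In the small intestine, GFP-positive minus GFP-negative differences were large but rested on 1 library. Cd74 differed by -3.94 ± 1.31 on the log2 scale (SE, n = 3 per group, edgeR adjusted p = 0.0951), H2-Aa by -4.12 ± 1.57, H2-Ab1 by -3.69 ± 1.34, H2-Eb1 by -4.18 ± 1.47 and Ciita by -2.13 ± 1.04. By edgeR's quasi-likelihood test with Benjamini-Hochberg adjustment 0 of 5 genes were called at an adjusted p under 0.05, where 10.9% of all genes tested were, and 4 of 5 had an unadjusted p under 0.05, as did 23.6% of genes. DESeq2, which called 10% of genes as lower, called 2 of them, Cd74 (adjusted p = 0.00399) and H2-Aa (adjusted p = 0.0135), and gave no adjusted p for H2-Ab1 and H2-Eb1 in this or any of the other 4 comparisons. Without GFP-negative replicate 2, edgeR called Cd74 (adjusted p = 0.0271), H2-Aa (-4.69, adjusted p = 0.0318), H2-Ab1 and H2-Eb1 as lower. These were 4 of 5 genes, where 8.19% of all genes were called as lower. Without GFP-negative replicate 3 edgeR called 0 of 5, against 8.88% of genes, and the differences were -0.33 ± 0.39 for Cd74 (edgeR adjusted p = 0.727), 0.17 ± 0.73 for H2-Aa, -0.05 for H2-Ab1, -0.03 for H2-Eb1 and -0.41 for Ciita. Markers of other cell types also differed between these sorts. The epithelial sum was 229 to 761 CPM in GFP-negative and 12.1 to 17.7 CPM in GFP-positive libraries, and 7 of 8 epithelial genes were called as lower in the latter, as were 7 of 8 blood endothelial and 6 of 7 enteric glial genes. In contrast 9 of 10 fibroblast and 6 of 7 lymphatic endothelial genes were called as higher. Of 8 pan-leukocyte genes tested 1 was called as lower by edgeR and 6 had an unadjusted p under 0.05, with a median of -4.74 over the 8. Without GFP-negative replicate 3, 0 of the 8 were called or had an unadjusted p under 0.05 and their median was -0.21. In that fit 6 of 8 epithelial genes were called as lower and 8 of 10 fibroblast genes as higher. The part of any of these in the class II values was not tested.

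In the colon, each of the 5 genes was higher in all 3 GFP-positive than in all 3 GFP-negative libraries, a separation that 17.8% of genes tested also showed. Cd74 averaged 209 ± 78.7 CPM in GFP-negative and 367 ± 25.5 CPM in GFP-positive libraries (SD, n = 3), a log2 difference of 0.81 ± 1.17 that was not called (edgeR adjusted p = 0.797). H2-Aa differed by 0.71 ± 1.38, H2-Ab1 by 1.15 ± 1.22, H2-Eb1 by 1.36 ± 1.32 and Ciita by 1.1 ± 0.99. Here 0 of 5 were called by edgeR, where it called 8.69% of all genes, and none was at an unadjusted p under 0.05 (19.5% of genes were). DESeq2 called none of the 3 that it gave an adjusted p.

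The spread in that model is shared by all 4 groups, so small intestinal GFP-negative replicate 3 enters it although it is not in the comparison. Without that library the folds were the same and the standard errors smaller, with Cd74 at 0.81 ± 0.34 (edgeR adjusted p = 0.201), H2-Ab1 at 1.15 ± 0.45 (adjusted p = 0.162) and H2-Eb1 at 1.36 ± 0.45 (adjusted p = 0.091). Again 0 of 5 were called, against 10% of genes, and 3 of 5 had an unadjusted p under 0.05, as did 20.8% of genes. In a fit of the 6 colon libraries alone, edgeR called H2-Eb1 (1.37, adjusted p = 0.00308), H2-Ab1 (1.15, adjusted p = 0.0258) and Ciita (1.11, adjusted p = 0.046) as higher, 3 of 5 genes where 10.7% of all genes were called higher. In the same fit Cd74 (adjusted p = 0.0776) and H2-Aa (adjusted p = 0.0956) were not called.

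Endothelial genes were higher in the same colonic GFP-positive libraries. edgeR called 6 of 7 lymphatic endothelial genes as higher (median 6.76, sums of 12500 to 14200 CPM against 195 to 291 CPM) and 7 of 8 pan-endothelial genes (median 2.93, 2110 to 2550 CPM against 271 to 671 CPM), with the same counts without small intestinal GFP-negative replicate 3. Of 8 blood endothelial genes 1 was called as higher and 3 as lower, 5 as lower without that library. The epithelial sum was 306 to 1670 CPM in GFP-positive and 1040 to 2400 CPM in GFP-negative libraries, with 0 of 8 called by edgeR or DESeq2 and 1 at an unadjusted p under 0.05. The part of endothelial or epithelial RNA in the class II difference was not tested.

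Leukocyte lists gave few calls in the colon. The pan-leukocyte sum was 8.68 to 19.5 CPM in GFP-positive and 10.6 to 34.1 CPM in GFP-negative libraries. edgeR called 0 of its 8 tested genes, with 0 at an unadjusted p under 0.05, and DESeq2 gave an adjusted p for 1 of the 8. Without small intestinal GFP-negative replicate 3, edgeR again called 0 of 8, while Rac2 and Arhgap45 had an unadjusted p under 0.05, as did 3 of 5 B and plasma cell genes, and all of these were lower in GFP-positive cells. Of 4 dendritic cell genes tested, Zbtb46, a transcription factor of dendritic cells that endothelial cells also express, was called as higher (1.7 ± 0.33, edgeR adjusted p = 0.00601). It measured 7.48, 15.4 and 10.1 CPM without GFP and 30.1, 38.7 and 38.6 CPM with GFP, and it stayed called without that library (adjusted p = 0.00275). DESeq2 called Zbtb46 as higher too and Batf3, a further factor of dendritic cells, as lower (adjusted p = 0.0466). Flt3, Xcr1, Clec9a and Cd209a, markers of dendritic cells, measured at most 0.571 CPM in any colonic GFP-positive library, and Itgax at most 1.14 CPM. Colonic GFP-negative libraries were also near the floor, with at most 0.633 CPM of those genes and 1.83 CPM of Itgax. Irf8, of the same list, measured 89.5, 103 and 110 CPM without GFP and 45.1, 84.6 and 78.6 CPM with GFP. The part of leukocyte RNA in the class II difference was not tested.

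The interaction, which asks whether the GFP difference was larger in the colon than in the small intestine, was 4.75 ± 1.73 for Cd74 (edgeR adjusted p = 0.236), 4.83 ± 2.06 for H2-Aa, 4.84 ± 1.8 for H2-Ab1, 5.54 ± 1.96 for H2-Eb1 and 3.23 ± 1.44 for Ciita. With edgeR, 0 of 5 were called, where 2.06% of genes were, and all 5 had an unadjusted p under 0.05, as did 14.5% of genes. DESeq2 called Cd74 alone as higher (adjusted p = 0.0428), where it called 3.96% of genes higher. Without small intestinal GFP-negative replicate 3 the value for Cd74 was 1.14 ± 0.52 (edgeR adjusted p = 0.347), none of the 5 was called (2.35% of genes were), and 1 had an unadjusted p under 0.05 (14.1% of genes had). A different GFP effect in the 2 tissues is thus not shown for these genes by edgeR. Beside them, edgeR called 2 of 8 epithelial genes as higher and 5 of 10 fibroblast genes as lower for the interaction. It also called as higher 1 of 8 pan-endothelial genes, Tek (2.61, edgeR adjusted p = 0.0262). Of 7 enteric glial genes it called 1 as higher, Erbb3 (4.53, edgeR adjusted p = 0.0382). Without small intestinal GFP-negative replicate 3 the fibroblast calls of Pdgfra, Col1a2 and Col3a1 were lost (edgeR adjusted p = 0.0555, 0.0602 and 0.0654). Those of Lum and Cxcl13, the epithelial calls of Krt8 and Krt20, and the calls of Tek and Erbb3 stayed. Pecam1 (3.36, edgeR adjusted p = 0.0381) and Zbtb46 (1.94, edgeR adjusted p = 0.0402) were called as higher in that fit and not with all 12 libraries. The part of any of these cell types was not tested.

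Among GFP-positive cells, class II was higher in the colon than in the small intestine, and this comparison does not contain the library that stood apart. All 5 genes were higher in each colonic GFP-positive library than in each small intestinal one, as were 12.9% of genes tested. Cd74 averaged 367 ± 25.5 CPM in colonic and 44.6 ± 18.7 CPM in small intestinal GFP-positive cells (SD, n = 3), a log2 difference of 3.04 ± 1.26. H2-Aa differed by 2.9 ± 1.5, H2-Ab1 by 2.68 ± 1.29, H2-Eb1 by 2.95 ± 1.41 and Ciita by 2.66 ± 1.05. With the spread shared over all 12 libraries, edgeR called 0 of 5 (adjusted p = 0.23 to 0.391), where 4.57% of genes were called, and 2 of 5 had an unadjusted p under 0.05, as did 16.3% of genes. DESeq2 called Ciita alone (adjusted p = 0.04), where it called 4.88% of genes higher.

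When small intestinal GFP-negative replicate 3 was left out of the shared spread, edgeR called 4 of 5 as higher in the colon, where 3.48% of all genes were called higher. They were Cd74 (3.04 ± 0.37, adjusted p = 0.000987), H2-Eb1 (2.95 ± 0.48, adjusted p = 0.00456), H2-Ab1 (2.68 ± 0.47, adjusted p = 0.00786) and H2-Aa (2.91 ± 0.66, adjusted p = 0.0285), while Ciita was at 2.66 ± 0.79 (adjusted p = 0.0843). A fit of the 6 GFP-positive libraries alone called these 4 of the 5 genes, where it called 3.42% of all genes higher, with edgeR adjusted p = 0.00115 for Cd74 to 0.00879 for H2-Aa. The median over the 5 genes was 2.9 with and 2.91 without the library, beside a median of -0.02 over all genes tested in both.

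Other cell types differed between these same groups. The epithelial sum was 306, 592 and 1670 CPM in colonic and 12.1, 13.1 and 17.7 CPM in small intestinal GFP-positive libraries, and 7 of 8 epithelial genes were called higher in the colon (8 of 8 without small intestinal GFP-negative replicate 3). Fibroblast genes went the other way, with sums of 21100, 23900 and 19300 CPM in the colon and 39400, 42500 and 60300 CPM in the small intestine. edgeR called 1 of 10 as lower in the colon, with 8 at an unadjusted p under 0.05, and DESeq2 called 7. Lymphatic endothelial genes summed to 13900, 14200 and 12500 CPM in the colon and 9910, 12600 and 3730 CPM in the small intestine, with 0 of 7 called by edgeR (1 at an unadjusted p under 0.05) and 1 called as higher by DESeq2. Pan-leukocyte genes overlapped between the tissues, at 8.68 to 19.5 against 6.8 to 34.6 CPM, with 0 of 8 called by edgeR or at an unadjusted p under 0.05 (1 without small intestinal GFP-negative replicate 3), and DESeq2 gave an adjusted p for 1 of the 8, which it did not call. The part of epithelial, fibroblast or lymphatic RNA in the class II difference was not tested.

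Among GFP-negative cells, the direction of the colonic difference depended on 1 library. With all libraries the colon minus small intestine values were -1.71 ± 1.19 for Cd74 (edgeR adjusted p = 0.516), -1.92 ± 1.42 for H2-Aa, -2.16 ± 1.26 for H2-Ab1, -2.6 ± 1.36 for H2-Eb1 and -0.57 ± 0.99 for Ciita. With limma-voom and on both TPM scales Cd74 and H2-Aa were above 0 instead (Cd74 at 0.15 to 0.62). No gene was called by edgeR or DESeq2 and 0 of 5 had an unadjusted p under 0.05 (18.2% of genes had), where edgeR called 4.21% of genes. Without small intestinal GFP-negative replicate 3 all 5 changed sign. Cd74 was then 1.9 ± 0.41 higher in the colon (edgeR adjusted p = 0.0265), the only 1 of 5 called as higher, where 1.67% of genes were. H2-Aa stood at 2.37 ± 0.76 (adjusted p = 0.127), H2-Ab1 at 1.49 ± 0.53 (adjusted p = 0.164), H2-Eb1 at 1.56 ± 0.54 (adjusted p = 0.148) and Ciita at 1.15 (adjusted p = 0.59). That fit has 2 small intestinal GFP-negative libraries, against 3 of the colon. The epithelial sum was 1040 to 2400 CPM in the colon and 229 to 761 CPM in the small intestine, with 0 of 8 genes called by edgeR (5 at an unadjusted p under 0.05) and 3 by DESeq2. Pan-leukocyte genes had a median of -4.07 with all libraries, 0 of 8 called by edgeR and 4 at an unadjusted p under 0.05, and a median of 0.79 with 0 of 8 called or at an unadjusted p under 0.05 without that library. Endothelial genes were lower in the colon, with 0 of 8 pan-endothelial and 2 of 8 blood endothelial genes called in all libraries. Without that library, where Cd74 was called, 3 and 4 of them were, where 2.37% of all genes were called as lower, and all 8 pan-endothelial genes had an unadjusted p under 0.05. The part of any of these in the class II values was not tested.

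**Figure D3:**
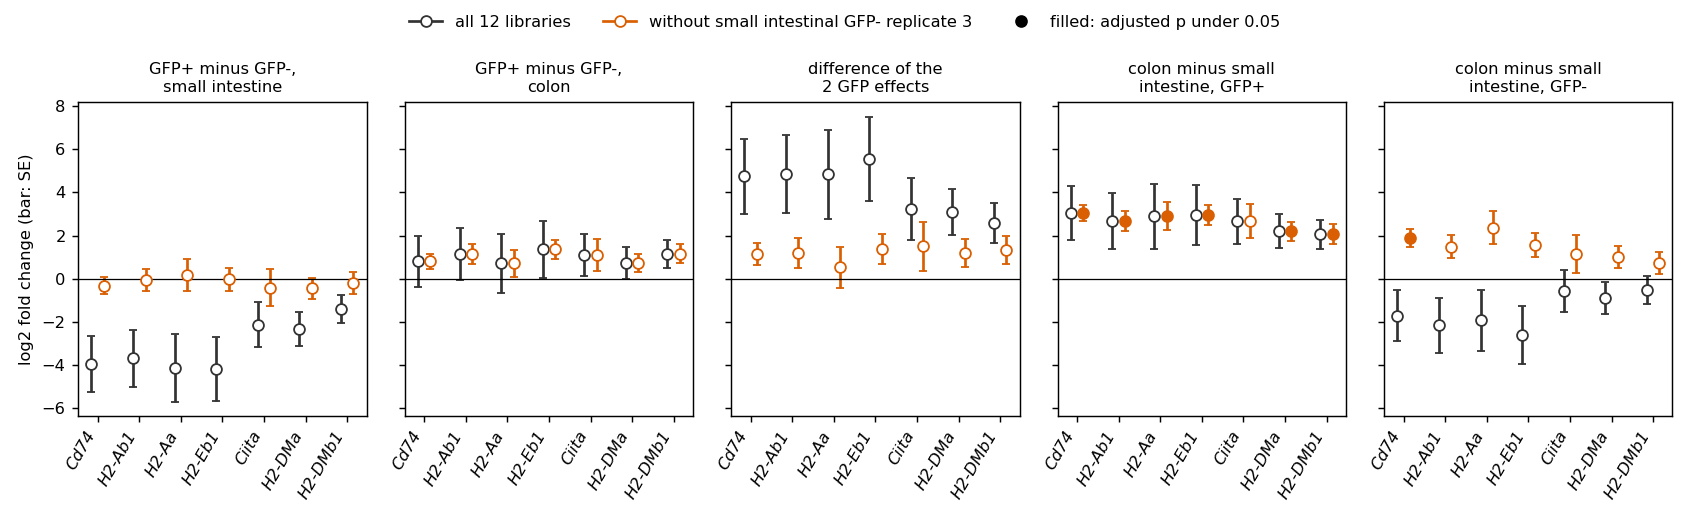
Log2 fold changes from edgeR with their SE for the 5 genes and H2-DMa and H2-DMb1 in the 5 comparisons, with all 12 libraries (dark) and without small intestinal GFP-negative replicate 3 (orange); filled points have an adjusted p under 0.05. Differences in the small intestine go from -3.94 to -0.33 for Cd74 when the library is left out, those among GFP-positive cells stay at 3.04 with a smaller SE, and those among GFP-negative cells change sign.

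Within the colon, the beta chains stood in a higher proportion to Cd74 in GFP-positive than in GFP-negative libraries. Relative to Cd74 in TPM, which allows levels of different genes to be compared, H2-Aa stood at 22.8% to 23.4% in all 6 colon libraries. H2-Ab1 stood at 28.7%, 30.6% and 31.5% in colonic GFP-negative and 37.9%, 37.4% and 37.4% in GFP-positive replicates, and H2-Eb1 at 14.9%, 17.9% and 15.2% against 25.4%, 18.5% and 21.4%. H2-Aa did not overlap between the sorts either, at 22.8%, 23.1% and 22.8% against 23.2%, 23.3% and 23.4%, but its difference was small. In CPM, which does not correct for length, H2-Ab1 at 26.7% to 28.4% against 33.8% to 36.3% and H2-Eb1 at 11.9% to 13.4% against 15.9% to 20% of Cd74 were again separate. H2-Aa overlapped on that scale, at 20.9%, 19.9% and 21% against 18.5%, 21.2% and 18.5%, so its near constancy holds in TPM and not in CPM.

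The colonic means were 37.6% ± 0.289 against 30.3% ± 1.43 for H2-Ab1, 21.8% ± 3.46 against 16% ± 1.65 for H2-Eb1, 23.3% ± 0.1 against 22.9% ± 0.173 for H2-Aa and 2.48% ± 0.445 against 0.92% ± 0.256 for Ciita (GFP-positive against GFP-negative, SD, n = 3). An exact two-sided permutation test gave p = 0.1 for each of the 4 ratios, the smallest that 3 against 3 libraries allow, and 0.1 after adjustment over the 4. For Ciita the sorts overlapped in CPM, at 5.28%, 5.21% and 2.75% of Cd74 without GFP against 5.58%, 5.24% and 5.35% with GFP. These TPM ratios were chosen after values had been seen. In the small intestine the shares varied more, from 9.09% to 29.4% for H2-Aa, 34.7% to 67.8% for H2-Ab1 and 16.2% to 31.4% for H2-Eb1, at Cd74 levels of 2.8 to 7.54 TPM outside GFP-negative replicate 3. That replicate, at 172 TPM of Cd74, had 26.9% H2-Aa, 42.3% H2-Ab1 and 30.2% H2-Eb1, each above the colonic range, and 0.654% Ciita, at the low end of the colonic 0.639% to 2.99%.

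**Figure D4:**
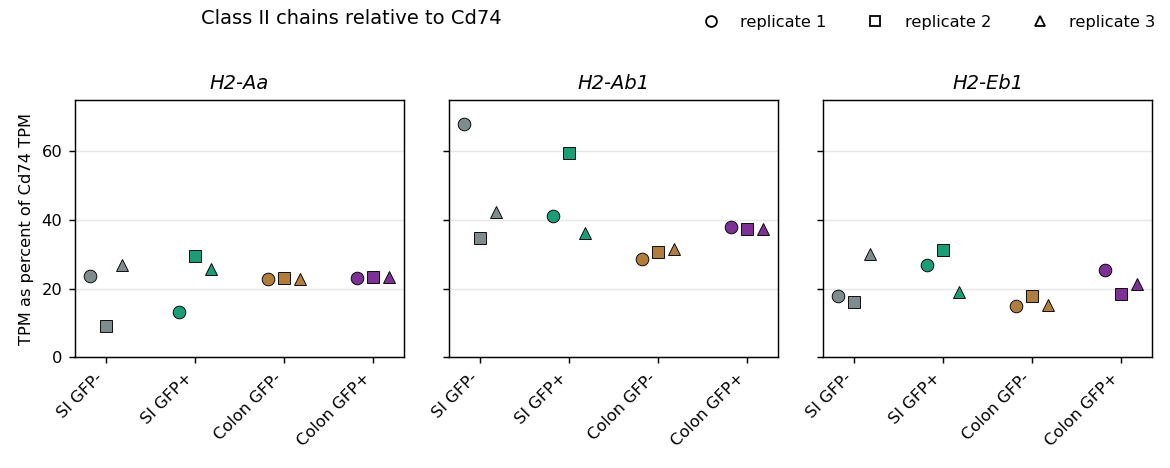
TPM of H2-Aa, H2-Ab1 and H2-Eb1 as a percentage of the TPM of Cd74 in each library, by tissue and sort, with symbols for the replicate. H2-Aa lies at 22.8% to 23.4% in the 6 colon libraries, while H2-Ab1 is at 28.7% to 31.5% without and 37.4% to 37.9% with GFP.

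The peptide exchange genes followed the 5 genes more weakly, and the remaining class II genes were close to absent outside 1 library. H2-DMa, the alpha chain of H2-DM, measured 3.61, 3.24 and 31.4 CPM in small intestinal GFP-negative, 2.75, 2.27 and 2.48 in small intestinal GFP-positive, 11.4, 4 and 5.32 in colonic GFP-negative and 14.5, 11.8 and 8.46 CPM in colonic GFP-positive replicates. H2-DMb1, a beta chain of H2-DM, measured 5.53, 5.33 and 27.8, then 2.99, 8.77 and 2.6, then 13.2, 6.17 and 7.85, then 19.8, 24.8 and 16 CPM in the same groups. In GFP-positive cells both were higher in the colon, H2-DMa without overlap (2.2 ± 0.78, edgeR adjusted p = 0.163) and H2-DMb1 likewise (2.07 ± 0.67, adjusted p = 0.121). Without small intestinal GFP-negative replicate 3 edgeR called both, at adjusted p = 0.0101 and 0.0185, and DESeq2 called both with all 12 libraries, at adjusted p = 0.042 and 0.0226.

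H2-DMb2, the other H2-DM beta chain, had 155 counts (24.9 CPM) in small intestinal GFP-negative replicate 3 and 0 to 7 counts in each other library. H2-Ob, the beta chain of the H2-DM inhibitor H2-DO, had 28.8 CPM there and at most 0.601 CPM elsewhere, and its partner H2-Oa had 16 counts there and at most 1 elsewhere. H2-Eb2, a further I-E beta-type gene, had 12.1 CPM there and 0 to 0.24 CPM elsewhere. H2-DMb1 and H2-DMb2 are similar copies, so reads may have been divided between them. The colon, with 131 to 386 CPM of Cd74, thus showed classical class II and H2-DM but H2-DO at or near 0, within what a depth of 3 counts can tell. These 4 genes did not pass the filter on low counts and have no test.

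**Figure D5:**
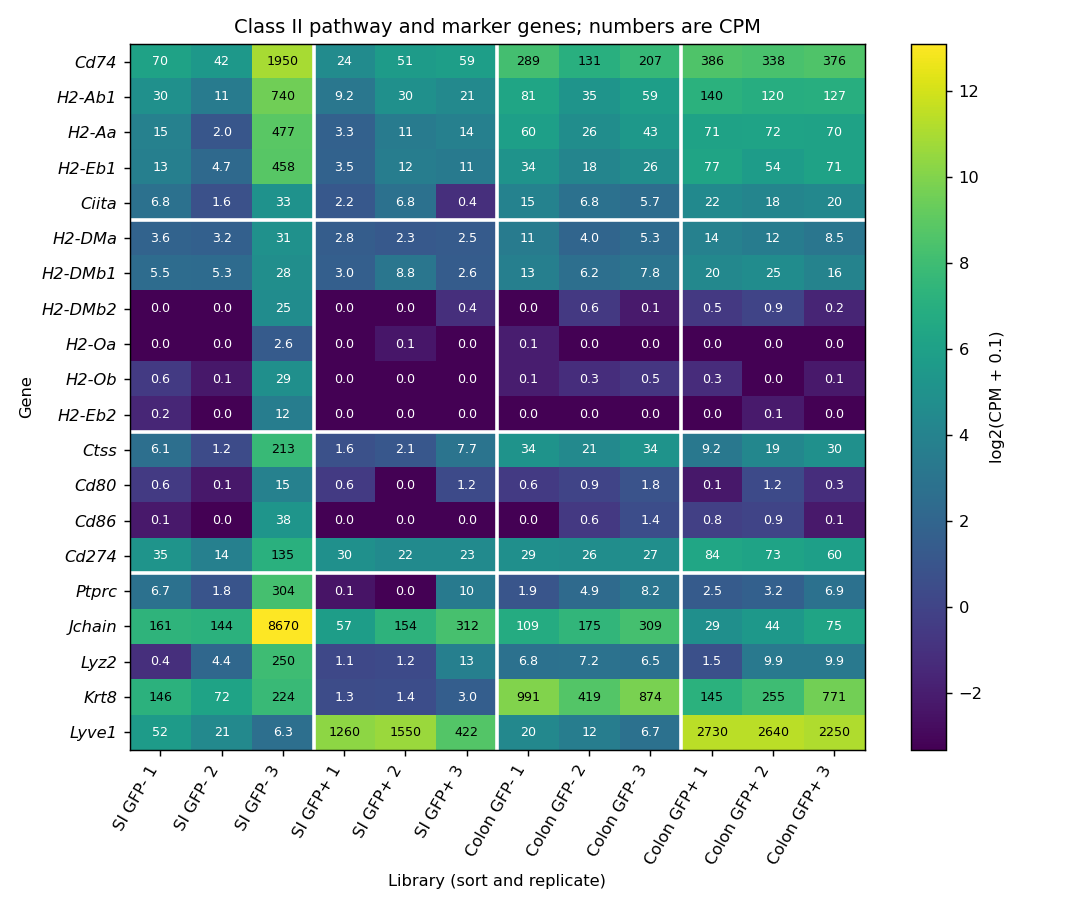
CPM of class II, processing, costimulation and marker genes (rows) in the 12 libraries (columns), printed in each cell and coloured by log2(CPM + 0.1). The third column, small intestinal GFP-negative replicate 3, holds H2-DMb2, H2-Ob, H2-Eb2 and Cd86 at 24.9, 28.8, 12.1 and 38.1 CPM, which are near 0 in the other libraries.

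Jak2, a kinase of the interferon gamma receptor, was called as lower in small intestinal GFP-positive cells (-0.71 ± 0.2, edgeR adjusted p = 0.0368), but 1 of 12 fits without a library and 3 of 8 other settings kept that call. Irf1, a further activator of Ciita, was called without small intestinal GFP-negative replicate 3 as lower in small intestinal GFP-positive cells (-0.94, edgeR adjusted p = 0.0233) and lower in the colon among GFP-negative cells (-1.26, adjusted p = 0.011), and DESeq2 made the latter call with all 12 libraries (adjusted p = 0.018). It measured 799, 737 and 328 CPM in small intestinal GFP-negative replicates, so it was lowest in the replicate with the most class II. Of the 7 genes whose products bind class II promoters (Rfx5, Rfxank, Rfxap, Creb1, Nfya, Nfyb and Nfyc) 0 were called by edgeR in any of the 5 comparisons, with or without that library, or by DESeq2, at most 1 per comparison had an unadjusted p under 0.05, and their summed level was 221 to 266 CPM in all 12 libraries.

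Among 7 endosomal processing genes, Ctss, the protease that trims the invariant chain, resembled class II in the small intestine and not in the colon. It measured 6.13, 1.25 and 213 CPM in small intestinal GFP-negative, 1.58, 2.07 and 7.68 in small intestinal GFP-positive, 34.3, 20.6 and 33.7 in colonic GFP-negative and 9.23, 19.1 and 29.7 CPM in colonic GFP-positive replicates. Colonic GFP-negative libraries were thus not below the GFP-positive ones for Ctss, as they were for Cd74. Ctsl, a related cathepsin, rose in small intestinal GFP-positive cells (1.28 ± 0.27, edgeR adjusted p = 0.00831), from 173, 334 and 142 to 467, 549 and 556 CPM, and edgeR kept the call without each of the 12 libraries. Of 8 other settings 7 kept it, but not a fit of the small intestinal libraries alone (edgeR adjusted p = 0.0882).

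Of 6 costimulatory and inhibitory ligands, Icosl, the ligand of the T cell receptor ICOS, fell in colonic GFP-positive cells by 1.5 ± 0.3 on the log2 scale (edgeR adjusted p = 0.00779), from 77.4, 90.5 and 98.3 to 33, 34.3 and 26.9 CPM. Cd274 encodes the inhibitory ligand PD-L1. It measured 29.3, 26.3 and 27 CPM in colonic GFP-negative and 84.3, 73 and 59.9 CPM in colonic GFP-positive replicates, and 29.6, 22.5 and 22.8 CPM in small intestinal GFP-positive ones. With all 12 libraries edgeR called Cd274 in none of the 5 comparisons, while DESeq2 called it as higher for the interaction (2.74, adjusted p = 0.013). Without small intestinal GFP-negative replicate 3, which held 135 CPM, edgeR called it as higher in colonic GFP-positive cells against both groups (1.39, adjusted p = 0.00662, and 1.54, adjusted p = 0.00744). The activating ligands Cd80 and Cd86 measured 14.6 and 38.1 CPM in small intestinal GFP-negative replicate 3 and at most 1.77 and 1.39 CPM in any other library.

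Likeness to the class II profile was measured as the root mean square difference, in log2 CPM, between a gene and the mean of Cd74, H2-Aa, H2-Ab1 and H2-Eb1, each centred on its own mean, among 11485 genes. Over all 12 libraries the 10 nearest genes were Cd28 (0.833), Ctss (0.854), H2-DMa (0.882), Mki67 (0.909), Acp5 (0.975), Syk (1.01), H2-DMb1 (1.02), Uhrf1 (1.02), Kif11 (1.09) and Plek (1.1). All 10 were highest in small intestinal GFP-negative replicate 3, with Mki67, a marker of dividing cells, at 280 CPM there and at most 76 CPM elsewhere. Over the 11 libraries without it the nearest were Nr1d1 (0.658), Racgap1 (0.758), Tnfrsf11b (0.762), Ccn3 (0.765), H2-DMb1 (0.771), H2-DMa (0.772), Hk2 (0.78), Igfbp5 (0.781), Cd109 (0.802) and Ddah1 (0.842). H2-DMa and H2-DMb1 were the genes that both sets shared, and these distances describe libraries that share tissue and sort.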

How the data were processed

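Per the submitters' processing notes, the authors used Salmon 1.1.0, R 3.6.1 and the mm10 build; the annotation, filters and any rounding are not given in the sources used here. The deposited estimated counts per gene (expected counts) are whole numbers in 100% of cells and were treated as rounded. TPM (length-scaled abundance) was recovered from the other deposited table, of log2(TPM + 1) values. Symbols came from GENCODE M21, and promoters from RefSeq.

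Libraries were grouped by their labels. The tests on counts used edgeR 4.0.16 in R 4.3.3 (TMM, robust quasi-likelihood, filterByExpr at a minimum count of 10, 16757 genes tested), with 1 mean per group over all 12 libraries and Benjamini-Hochberg adjustment over all genes tested. A call is an adjusted p under 0.05. The 5 comparisons are GFP-positive minus GFP-negative in each tissue, their difference, and colon minus small intestine in each sort. The depth of 6489835 to 12286054 counts makes values of a few counts uncertain.

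The 5 genes and the gene lists were chosen with earlier results of these data known. Named besides the 5 are all other class II genes, pathway genes called in a comparison (1 is not reported here), up to 4 marker genes per cell type list by mean CPM, and the 10 genes nearest in profile. Figures and single sentences also name genes for contrast, such as Cd80 and Cd86, chosen after their values were seen. Ccl21a matched more than 1 identifier and was left out.

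Alternatives were DESeq2 1.42.0, its size factors in edgeR, limma-voom and limma 3.58.1 on both TPM scales, no filter on low counts, fits of the compared libraries alone, a replicate block, and leaving out each of the 12 libraries. Scripts were tested on simulated data. The main tests did not pair libraries. The replicate block used the replicate numbers, within each tissue for the GFP differences and the interaction, and over both tissues for the tissue differences. Deviations of same-numbered small intestinal libraries correlated at 0.323, 0.179 and 0.166. Replicate numbers were therefore taken as a possible pairing of the small intestinal sorts, from the data and not from the labels. In the colon the correlations were 0.00933, 0.0465 and 0.0903. Sample names of replicate 3 share a number across the 4 groups, and those of replicate 2 share another across both colon sorts. What either number means is not stated, and the block rested on the replicate numbers of the labels alone.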

Additional observations from a re-analysis of the deposited data

How the results depend on the processing

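Every alternative was fitted. DESeq2 called 1095 genes for the interaction, 1430 for the tissue difference in GFP-positive and 1666 in GFP-negative cells, against 345, 765 and 706 with edgeR. limma-voom called 174 for the interaction and 354 in GFP-positive cells. On log2(TPM + 1) the counts were 662 for GFP in the small intestine (1821 with edgeR on counts), 167 for the interaction, 379 in GFP-positive and 1560 in GFP-negative cells, and protein-coding TPM gave 123 for the interaction. Fits of the compared libraries alone called 850 for GFP in the small intestine, 3016 for GFP in the colon (1456 with all 12 libraries) and 406 for tissue in GFP-negative cells, with fewer samples behind each spread. In GFP-negative cells the tissue difference changed sign with limma-voom for Cd74 (0.15), H2-Aa (1.05) and Ciita (0.47), on log2(TPM + 1) for Cd74 (0.62), H2-Aa (0.4), H2-DMa (0.24) and H2-DMb1 (0.1), and on protein-coding TPM for Cd74 (0.25), H2-Aa (0.59) and H2-DMa (0.16). The median of all genes in these fits was 0.006, 0.193 and 0.042, against -0.057 with edgeR, and protein-coding TPM put the GFP differences of all genes at medians of -0.18 (small intestine) and -0.19 (colon). The cause was not tested.

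Leaving out 1 library at a time gave 816 to 1773 calls for GFP in the colon, 69 to 1044 for the interaction, 416 to 1050 for tissue in GFP-positive and 187 to 1229 in GFP-negative cells. The median of the 5 genes ranged from -4.49 to -0.05 for GFP in the small intestine, 1.2 to 5.4 for the interaction and -2.49 to 1.56 for tissue in GFP-negative cells, the value nearest or above 0 (for the interaction, the lowest) always without small intestinal GFP-negative replicate 3. H2-Aa for GFP in the small intestine ranged from -4.69 to 0.17. For tissue in GFP-negative cells the ranges were -2.26 to 1.9 for Cd74, -2.49 to 2.37 for H2-Aa, -2.71 to 1.49 for H2-Ab1, -3.16 to 1.56 for H2-Eb1, -1.1 to 1.15 for Ciita, -1.41 to 1.01 for H2-DMa and -0.86 to 0.74 for H2-DMb1. With a replicate block, edgeR called 1931 genes for GFP in the small intestine, 1535 in the colon and 330 for the interaction, and 853 and 944 for tissue in GFP-positive and GFP-negative cells. The block took Cd74 for GFP in the small intestine from -3.94 to -2 (adjusted p = 0.3) and changed no call among the 5 genes or the pathway genes named. Arms of 3 libraries and a single library with high class II limit what these counts resolve.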

Other observations

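Some other genes of the class II pathway were also at their highest in small intestinal GFP-negative replicate 3 without being near absent elsewhere. In CPM, 4 of 7 endosomal processing, 2 of 7 promoter-binding, 2 of 7 interferon gamma route and 5 of 6 costimulation genes were highest there, against 15% of all genes. Ctsl and Marchf8 (processing) and Socs1 (interferon gamma route) were instead at their lowest there, at 142, 33 and 12.9 CPM. Ifi30, a lysosomal thiol reductase, measured 56.9 CPM there and 6.59 to 20.3 CPM in the other 11 libraries, Lgmn, the endosomal protease legumain, 245 CPM against 89.6 to 199 CPM, and Rfx5, a subunit of RFX, 27.5 CPM against 11.9 to 23.9 CPM. The ratio of Cd74 to Ptprc in CPM was 6.4 in that library and 10.4 and 23.9 in the other small intestinal GFP-negative libraries. In small intestinal GFP-positive replicates 1 and 3 it was 283 and 5.85, with no Ptprc count in replicate 2. Colonic GFP-negative libraries gave 151, 26.8 and 25.2 and colonic GFP-positive ones 153, 107 and 54.8. The ratio of 283 rests on 1 Ptprc count, so its size is uncertain at this depth.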
